A study of Mus musculus with 2 samples.

Results

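Internal alternative promoters are transcription starts that lie inside a gene, well downstream of its first start. Members were taken from the GENCODE M21 gene models of the mouse genome (mm10, chromosomes 1 to 19) as the starts of protein-coding transcripts at least 10 kb downstream of the 5'-most start of the same gene and over 1 kb from any start of another gene. Starts within 500 bp of each other were merged, and each region reached 500 bp to either side. The rule gave 5875 internal starts in 3616 of 20722 protein-coding genes (17.5%), and it used no measured value. They were set against the 3616 regions around the 5'-most starts of the same genes. As a background, 380624 tiles of 1001 bp were laid through the bodies of the same genes, at least 10 kb downstream of the 5'-most start and over 1 kb from any annotated start.

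Accessible chromatin was mapped by DNase-seq, an assay in which the nuclease DNase I cuts DNA that nucleosomes do not cover. The only group was left cerebral cortex tissue of male B6CASTF1/J mice, first-generation hybrids of C57BL/6J with CAST/EiJ, at 14 days of age, with no treatment and no engineered allele in the labels. It was measured in 2 libraries: the label of replicate 1 names 3 males and that of replicate 2 names 1 male, and both carry the same donor identifier. Values are given for replicate 1 and then replicate 2, and an SD is over n = 2 libraries, which need not be a spread between animals. With 2 libraries of 1 group an exact sign-flip test cannot give a two-sided p under 0.5, so differences are described beside the spread between libraries and no p is given.

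A promoter is the stretch of DNA at which transcription begins, and when active it is usually free of nucleosomes just upstream of the start. A gene with several promoters can make transcripts with different first exons, and an internal promoter can yield a protein that lacks the N-terminal part of the long form. Several neural genes are known for this, and the glucocorticoid receptor gene has a row of alternative first exons. Many mammalian promoters lie in CpG islands, which are rich in G, C and the CpG dinucleotide and tend to be open in many tissues, whereas CpG-poor promoters are more often tied to a tissue.

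The sequences below are the 150 bases upstream of internal starts described in the comparisons that follow, in the GRCm38 (mm10) reference assembly, 5′ to 3′ on the gene's strand. Capitals mark matches, on either strand, to 1 of 11 short words that were searched, here the GC box GGGCGG, the NRF1 word and the E-box CAGCTG. A match is a description of letters and not a bound site. The first set shows CpG-rich internal promoters, in which the 1001-bp region had a GC share of at least 55% and an observed over expected CpG ratio of at least 0.6.
Hdac4, chr1:92180342-92180491, minus strand: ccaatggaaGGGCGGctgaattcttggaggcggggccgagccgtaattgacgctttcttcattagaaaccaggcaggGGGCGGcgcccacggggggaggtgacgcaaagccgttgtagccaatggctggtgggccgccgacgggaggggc
Kat6b, chr14:21500703-21500852, plus strand: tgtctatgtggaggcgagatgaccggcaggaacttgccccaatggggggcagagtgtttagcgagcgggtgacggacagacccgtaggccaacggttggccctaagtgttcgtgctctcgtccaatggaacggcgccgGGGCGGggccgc
Ndel1, chr11:68853136-68853285, minus strand: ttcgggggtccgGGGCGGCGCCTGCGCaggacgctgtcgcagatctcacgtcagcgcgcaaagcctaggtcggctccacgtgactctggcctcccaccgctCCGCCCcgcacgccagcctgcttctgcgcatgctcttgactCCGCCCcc
Ptprs, chr17:56462217-56462366, minus strand: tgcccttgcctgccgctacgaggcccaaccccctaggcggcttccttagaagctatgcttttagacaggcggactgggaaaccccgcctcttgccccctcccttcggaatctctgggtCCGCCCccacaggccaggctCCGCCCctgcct
Here 18 CpG dinucleotides lay in the 150 bases of Ndel1, 14 in those of Kat6b, 13 in those of Hdac4 and 8 in those of Ptprs. All 4 held the GC box, which in Ndel1 occurred at 3 places, and there the NRF1 word shared its first base with the last base of a GC box. The peak of either library covered all 150 bases of the Hdac4 sequence.

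The second set shows CpG-poor internal promoters with high signal, which include the start of highest mean signal in the synaptic scaffold list (Shank3) and in the kinase list (Pde4d), and a cytoskeletal one (Map4) that is not the highest of its list.
Bicdl1, chr5:115652987-115653136, minus strand: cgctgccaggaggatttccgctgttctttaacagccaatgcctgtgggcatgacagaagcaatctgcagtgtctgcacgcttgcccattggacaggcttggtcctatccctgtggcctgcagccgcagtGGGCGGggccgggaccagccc
Cdh18, chr15:23036313-23036462, plus strand: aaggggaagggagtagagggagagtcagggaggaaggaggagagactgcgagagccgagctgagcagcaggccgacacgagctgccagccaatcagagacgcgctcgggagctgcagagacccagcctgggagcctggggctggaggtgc
Shank3, chr15:89532740-89532889, plus strand: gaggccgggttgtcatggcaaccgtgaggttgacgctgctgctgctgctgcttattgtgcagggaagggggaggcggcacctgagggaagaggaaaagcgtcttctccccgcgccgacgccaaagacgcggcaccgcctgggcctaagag
Pde4d, chr13:109926694-109926843, plus strand: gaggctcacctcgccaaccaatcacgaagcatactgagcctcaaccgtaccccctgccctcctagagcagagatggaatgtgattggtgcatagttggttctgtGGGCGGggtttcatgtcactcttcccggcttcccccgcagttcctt
Map4, chr9:110051898-110052047, plus strand: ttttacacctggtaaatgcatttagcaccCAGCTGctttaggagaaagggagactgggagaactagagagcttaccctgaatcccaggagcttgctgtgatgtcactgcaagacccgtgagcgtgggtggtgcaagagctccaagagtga
Between 2 and 12 CpG dinucleotides lay in these stretches, fewest in Map4 and most in Shank3. The GC box matched in Bicdl1 and Pde4d, the E-box in Map4, and none of the 11 words in Cdh18 or Shank3.

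The third set shows starts whose upstream 150 bases lay outside the strongest peak in both libraries.
Aktip, chr8:91134466-91134615, minus strand: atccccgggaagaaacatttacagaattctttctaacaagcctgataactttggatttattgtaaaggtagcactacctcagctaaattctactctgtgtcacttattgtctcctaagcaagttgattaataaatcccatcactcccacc
Cdk14, chr5:5266293-5266442, minus strand: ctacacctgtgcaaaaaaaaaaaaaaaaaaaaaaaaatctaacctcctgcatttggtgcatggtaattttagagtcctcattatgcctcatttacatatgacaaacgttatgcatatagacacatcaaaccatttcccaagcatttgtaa
Each held 1 CpG and none of the searched words. The strongest peak in the region of Aktip began downstream of the printed start (chromosome 8, positions 91134081 to 91134400 in replicate 1, on a gene that runs on the minus strand from position 91134465). That of Cdk14 lay upstream of the printed bases, from position 5266581 of chromosome 5. A peak within 500 bp of an annotated start therefore need not mark that exact start.

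About 1 in 4 internal starts had an accessible site in the cortex, fewer than 5'-most starts and more than the gene body. A peak overlapped 25.9% and 26.3% of internal starts (26.1% ± 0.313), 74.1% and 73.4% of the 5'-most starts of the same genes (73.7% ± 0.489), and 6.2% and 6.52% of gene body tiles. The internal share minus the 5'-most share was -48.2 and -47.0 percentage points, and the internal share minus that of tiles was 19.7 and 19.8 points, each many times the spread between libraries. In both libraries together 1406 of 5875 internal starts (23.9%), 2591 of 3616 5'-most starts (71.7%) and 18940 of 380624 tiles (4.98%) had a peak. For the 5'-most starts of all protein-coding genes the shares were 62.6% and 61.6%, with 60.2% in both. The other internal starts comprised 4211 without a peak in either library and 258 with a peak in 1 library only.

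**Figure D1:**
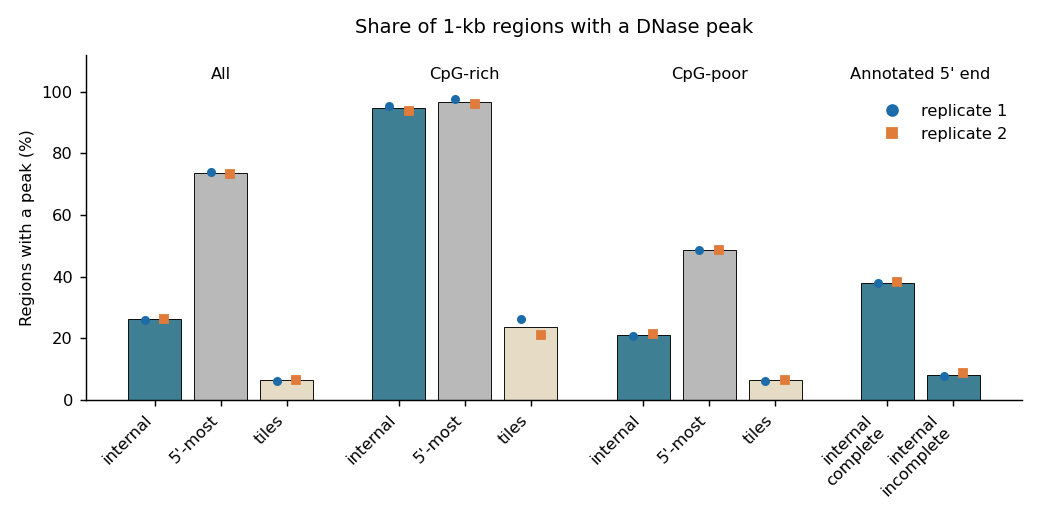
Share of 1-kb regions (vertical axis, %) with a DNase peak at internal starts, 5'-most starts and gene body tiles, for all regions and by CpG content, with internal starts divided by annotated 5' end at the right. Bars are the mean of 2 libraries and points the libraries. CpG-rich internal starts stand at 95.3% and 93.9%, near the CpG-rich 5'-most starts, and internal starts with an incomplete 5' end at 7.60% and 8.59%, near the tiles.

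Peaks at internal starts were also lower. The deposited signal of a peak is its cleavage density, which the authors scaled to depth, and where several peaks overlapped a region the highest was taken. Median signal was 1.05 and 1.15 at internal starts with a peak, 3.20 and 3.46 at 5'-most starts and 0.564 and 0.694 in tiles, compared with 0.549 and 0.663 over all peaks of a library. Of internal starts with a peak, 20.6% and 22.9% had a signal among the top 10% of all peaks, against 56.2% and 57.9% of 5'-most starts with a peak. In bulk tissue, a site open in fewer cells and a site cut less often in each cell cannot be told apart.

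Internal starts differed widely by how their transcripts were annotated. GENCODE flags transcripts whose 5' end was not found; 3534 internal starts rested on at least 1 transcript without the flag (complete) and 2341 only on flagged transcripts (incomplete). A peak overlapped 38.0% and 38.1% of complete starts, against 7.60% and 8.59% of incomplete ones. The incomplete share was 1.40 and 2.07 percentage points above that of the tiles. Of complete starts 28.6% lay in an exon of another transcript of the gene, compared with 94.6% of incomplete starts. Median signal was 1.11 and 1.28 at complete starts with a peak and 0.601 and 0.743 at incomplete ones, the last near the values of tiles. Of the 1406 internal starts with a peak in both libraries, 1258 (89.5%) were complete.

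Among complete starts, those in introns of other transcripts had a peak more often (42.3% in each library) than those in exons (27.4% and 27.7%). Starts shared by more transcripts had a peak more often: 31.2% and 31.7% with 1 transcript, 48.2% and 47.4% with 2, and 66.5% and 65.7% with 3 or more. Over all internal starts, 41.2% and 40.9% of those with a transcript in GENCODE's best evidence class had a peak, against 16.9% and 17.8% of the others. For starts with a consensus coding sequence (CCDS) the shares were 45.2% and 45%, against 16.6% and 17.3% without. These properties overlap, and their separate parts were not tested.

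Peak coverage was highest just upstream of starts of every class, and far higher at complete than at incomplete internal starts. Position by position, coverage by peaks was highest 50 bp upstream of complete internal starts, where 23.6% and 22.3% of them lay inside a peak, and 55.6% and 54.7% of 5'-most starts did so at the same offset. Around incomplete starts the maximum was 2.43% at 50 bp upstream in replicate 1 and 2.73% at 100 bp upstream in replicate 2. The centre of the strongest peak lay within 150 bp of the start for 60.6% and 60.3% of complete starts with a peak, for 36.5% and 41.3% of incomplete ones and for 70.2% and 69.5% of 5'-most starts.

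**Figure D2:**
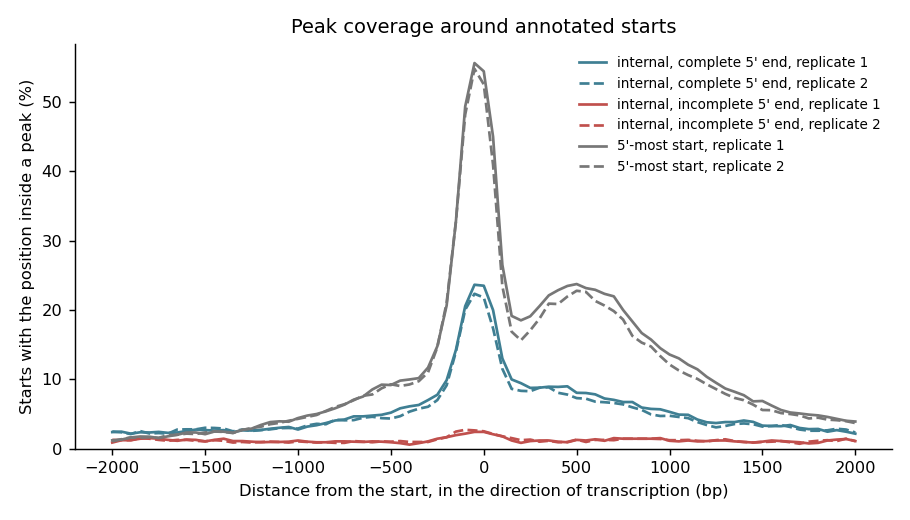
Share of starts (vertical axis, %) for which the position at a given distance from the start (horizontal axis, bp, negative upstream) lies inside a peak, for internal starts with complete and incomplete 5' ends and for 5'-most starts; solid lines are replicate 1 and dashed lines replicate 2. The curve of complete internal starts has its maximum of 23.6% and 22.3% at 50 bp upstream, and that of incomplete starts stays under 3%.

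CpG-rich internal starts were nearly always open. Only 407 internal starts (6.93%) were CpG-rich, compared with 52.1% of the 5'-most starts and 0.0473% of tiles. A peak overlapped 95.3% and 93.9% of CpG-rich internal starts, against 97.6% and 96.1% of CpG-rich 5'-most starts and 26.1% and 21.1% of the 180 CpG-rich tiles. Among CpG-poor regions the shares were 20.7% and 21.3% of internal starts, 48.5% and 48.6% of 5'-most starts and 6.19% and 6.51% of tiles. The median signal of CpG-rich internal starts, 2.25 and 2.36, lay below the 4.0 and 4.47 of CpG-rich 5'-most starts. CpG-rich regions made up 27.0% of internal starts open in both libraries and 0.404% of those open in neither.

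Incomplete starts were almost all CpG-poor (2335 of 2341), so both properties were considered jointly. Within CpG-poor regions a peak overlapped 30.6% and 30.9% of complete internal starts, against 7.49% and 8.48% of incomplete ones. Of the 401 complete CpG-rich starts 96.0% and 94.5% had a peak.

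The GC box, a word bound by Sp-family factors, followed the same order. It matched in the window from 250 bases before to 50 after the start in 36.7% of internal starts open in both libraries, in 6.89% of internal starts without a peak, in 65.2% of 5'-most starts open in both, in 43.7% of the 5'-most starts of all protein-coding genes and in 2.70% of tiles. The NRF1 word was rarer, with 2.92%, 0.190%, 9.92%, 6.16% and 0.0720% in the same sets. The TATA box word TATAAA ran the other way, with 8.82%, 19.1%, 5.36%, 12.7% and 26.2%. The E-box CAGCTG, a word of neurogenic helix-loop-helix factors, matched in 22.0% of open internal starts, 18.5% of internal starts without a peak, 14.4% of open 5'-most starts, 15.5% of all 5'-most starts and 11.6% of tiles. The ETS word CCGGAAG had 5.90%, 2.07%, 13.2%, 11.01% and 0.859%. The E-box CAGATG, with 20.3% of open internal starts and 22.9% of those without a peak, and the AP-1 word, with 7.97% and 9.31%, were no more frequent where internal starts were open. Such shares can depend on base composition as well as on the words themselves, and the part of composition was not tested.

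Distance from the 5'-most start went with a higher share of complete starts open. Between 10 and 20 kb 33.2% and 32.9% had a peak, between 20 and 50 kb 33.8% and 34.7%, between 50 and 100 kb 40.5% and 39.8%, between 100 and 300 kb 47.3% and 47.2%, and beyond 300 kb 52.9% and 53.7%. Tiles showed no such order, with 6.23% and 6.46% in the nearest bin and 4.91% and 5.33% in the farthest. The CpG-rich share of complete starts ranged from 10.4% to 13.4% over these bins. Median signal was lower in the farthest bin, at 0.931 and 0.989, than in the nearest, at 1.36 and 1.58. Distances had a median of 38.1 kb, and the largest, 2861 kb, belonged to the growth factor receptor gene Fgfr2. Each distance depends on the annotated 5'-most start, which was taken as GENCODE gives it, and whether that of Fgfr2 is a true start was not tested. At the distance limit itself, 212 internal starts between 10 and 11 kb had a peak in 19.8% and 21.2%, and 256 starts just short of it, between 9 and 10 kb, in 25% and 25.8%.

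An internal promoter can change the protein where its first coding base lies downstream of that of the longest form. This held for 1907 complete starts, and 734 of them had a peak in both libraries. A peak overlapped 41.5% and 40.9% of these starts, against 34.0% and 34.8% of complete starts with the same first coding start.

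Open internal starts usually held footprints, which are small gaps in the cutting where a bound protein shields DNA. At least 1 footprint lay in 93.2% and 92.9% of internal starts with a peak, against 97.8% and 97.0% of 5'-most starts with a peak, with a median of 4 and 3 against 7 and 6 footprints. A region with a higher signal gives a footprint caller more cuts to work with, and the part of signal in this difference was not tested. Footprints were counted anywhere in the 1001-bp region. No such share was computed for peaks away from starts, so whether it is particular to starts cannot be told.

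The libraries ranked internal starts alike. Over the 1406 starts open in both, which all come from the same 2 libraries, log10 signals correlated with a Pearson's r of 0.958, and Spearman's rho was 0.951. The log2 ratio of replicate 2 over replicate 1 had a median of 0.22 and an SD of 0.38 across these starts. The 116 starts with a peak in replicate 1 only and the 142 with a peak in replicate 2 only were weak, with a median signal of 0.393 and 0.448, against 1.14 and 1.33 for starts open in both. Neighbouring members can share a peak: 58 and 52 internal starts had the same strongest peak as another.

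Gene by gene, the internal start was usually the lower of the pair. Of the 3616 genes, 734 (20.3%) had a peak at an internal start and at the 5'-most start in both libraries, 292 (8.08%) at an internal start only, 1739 (48.1%) at the 5'-most start only and 550 (15.2%) at neither. The other 301 differed between libraries. Where both starts had a peak in a library, the log2 ratio of the strongest internal over the 5'-most start had a median of -0.82 in replicate 1 (832 genes) and -0.77 in replicate 2 (821 genes), an SD of 0.03. In 737 genes with both peaks in both libraries, taken with the strongest internal start of each library, the internal start was higher in both libraries in 234 genes (31.8%) and lower in both in 454 (61.6%).

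**Figure D3:**
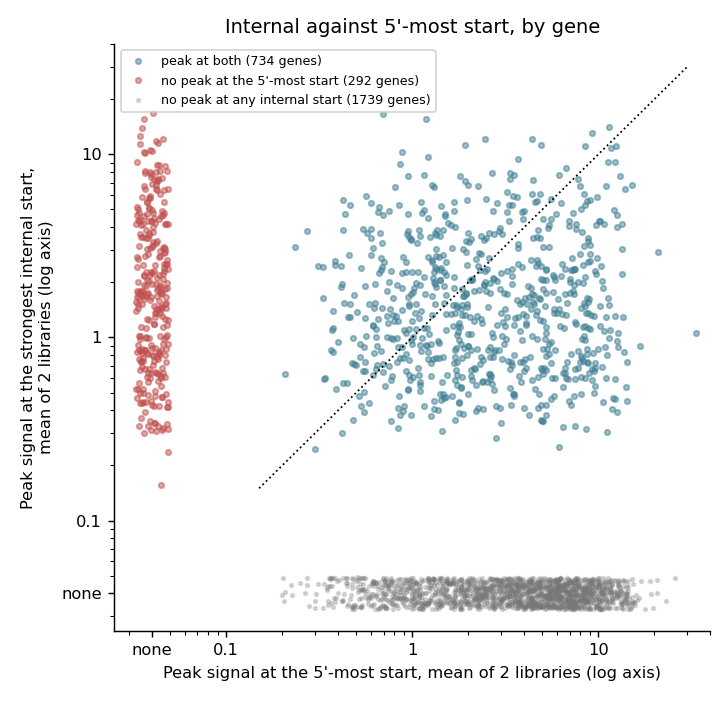
Each point is a gene: mean signal of 2 libraries at its strongest internal start (vertical log axis) against that at its 5'-most start (horizontal log axis), with genes lacking a peak spread out at "none" and the dotted line at equal signal. Of the genes with peaks at both, more lie below the line than above it; 292 genes had a peak at the internal start alone and 1739 at the 5'-most start alone.

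CpG content differed between these classes of genes. The internal start was CpG-rich in 41.9% of the 234 genes in which it was the higher, in 15.4% of the 454 in which it was the lower and in 38.0% of the 292 in which it alone had a peak. For the 5'-most start the shares were 46.2%, 75.1% and 3.42%. Among the 292 genes, the 5'-most start belonged to a transcript in the best evidence class in 38.4%, compared with 55.7% of the 734 genes open at both and 57.8% of all 3616. Whether a 5'-most start without a peak is in use in another tissue was not tested.

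Of the 292 genes open at an internal start alone, the 10 with the highest signal had 8.33 or more in every library and no peak at the 5'-most start. Aktip, whose product links vesicles to the Hook motor adaptors, had 13.4 and 20.3 at an internal start 65.5 kb downstream. Glo1, the glyoxalase that clears methylglyoxal, had 13.1 and 18.1, although its 5'-most start lay within 1 kb of a start of another gene. Kat6b, a histone acetyltransferase, had 11.7 and 16.2. Replicate 2 was the higher library in 9 of the 10 genes.

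Ndel1, a dynein regulator needed for neuronal migration, had 11.2 and 13.9 at a start 18.7 kb downstream. Stag1, a cohesin subunit, had 13.0 and 10.5, the only gene of the 10 with the higher value in replicate 1. Rbpj, the DNA-binding factor of the Notch pathway, had 9.59 and 13.5 at a peak that 2 of its internal starts share. The others were Dcun1d4, a neddylation factor, with 10.02 and 14.3, the nucleotide hydrolase family member Hint3 with 9.74 and 12.9, Tbc1d14, an autophagy regulator, with 8.62 and 12.6, and Anapc15, a subunit of the anaphase-promoting complex, with 8.33 and 12.5 and a 5'-most start within 1 kb of a start of another gene.

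Where both starts had a peak, the largest ratios in favour of the internal start were led by a histone deacetylase. Hdac4, a class IIa deacetylase that moves between cytoplasm and nucleus in neurons, had 13.8 and 19.4 at a start 15.4 kb downstream, against 0.511 and 0.885 at its 5'-most start, a log2 ratio of 4.60 ± 0.21. Its internal start (chromosome 1, position 92180341, minus strand) lay in an intron of other transcripts and was CpG-rich, and its 5'-most start was CpG-poor. The internal signal was 26.9-fold the 5'-most one in replicate 1 and 21.9-fold in replicate 2.

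Bicdl1, a dynein cargo adaptor, had 14.6 and 16.4 at its internal start against 1.30 and 1.07 (log2 ratio 3.71 ± 0.32). Srrm2, a spliceosome protein, had 8.74 and 11.9 against 0.886 and 0.885 (3.53 ± 0.32). Pnrc1, a nuclear receptor coactivator, had 7.67 and 9.99 against 0.753 and 0.971 (3.36 ± 0.01). These genes were picked for their ratio, so the gap between their starts follows from the choice. Over all 737 genes with both peaks in both libraries, the order of the starts differed between libraries in 49 (6.65%).

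The kinase gene Cdk14 had 4.0 and 3.63 at its strongest internal start against 0.279 and 0.264, and all 3 of its internal starts were open in both libraries. Cdh18, a cadherin, had 2.69 and 3.57 against 0.223 and 0.246, and Egf, a growth factor gene, had 4.96 and 6.23 against 0.412 and 0.436. Nr3c1, the glucocorticoid receptor gene, was open in both libraries at all 5 of its internal starts, which lie 28.1 to 32.2 kb downstream and of which 2 share a peak; the strongest had 6.34 and 5.46, against 0.488 and 0.639 at the 5'-most start. Psat1, an enzyme of serine synthesis, and Pwp1 had log2 ratios of 3.44 ± 0.06 and 3.53 ± 0.21. The 5'-most start of Pwp1 lay within 1 kb of a start of another gene.

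At the other end stood genes with a strong first promoter. Pak4, a p21-activated kinase, had 1.80 and 1.19 at its internal start against 9.70 and 13.1 at the 5'-most start (log2 ratio -2.95 ± 0.74). Acin1, a splicing-associated protein, had 2.52 and 3.35 against 19.9 and 22.1, and Hip1, an endocytic adaptor, had 1.51 and 1.76 against 9.20 and 13.3. Mef2b and Tbccd1 had log2 ratios of -2.78 ± 0.15 and -2.58 ± 0.30. The 5'-most starts of Pak4, Acin1, Mef2b and Tbccd1 lay within 1 kb of a start of another gene, whose signal cannot be told apart from theirs. That of Pak4 held the same peak as the 5'-most start of Samd4b. The 5'-most start of Hip1 had no such neighbour.

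**Figure D4:**
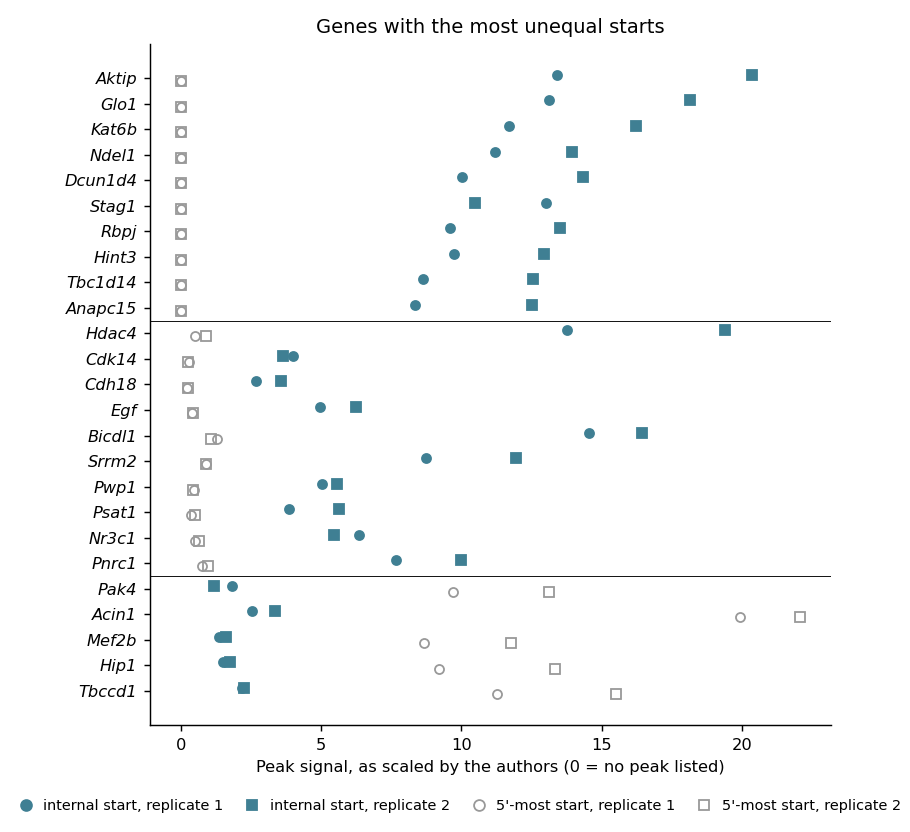
Signal at the strongest internal start (filled) and at the 5'-most start (open) for 25 genes, in replicate 1 (circles) and replicate 2 (squares); the horizontal axis is the deposited peak signal, with 0 where no peak is listed. From the top, the blocks are the 10 genes without a 5'-most peak, then genes chosen by the ratio of internal over 5'-most signal. Of the latter, the 10 largest ratios stand above the 5 smallest. The genes were picked by these values, so the gap between internal and 5'-most values follows from the choice.

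Highest signal of all internal starts belonged mostly to the genes above. The rest of the 15 strongest were Samd4b, an RNA-binding repressor, with 11.6 and 16.6, the chromatin protein gene Hmgb1 with 11.2 and 14.9, Ppp2r3d, a phosphatase subunit, with 11.1 and 14.96, the BAF complex subunit Smarcc1 with 9.99 and 14.3, and Mapre2, a microtubule end-binding protein, with 9.57 and 14.6. At the 5'-most start Samd4b had 9.70 and 13.1, Hmgb1 8.79 and 9.74, Smarcc1 4.49 and 4.32, Mapre2 2.07 and 2.87, and Ppp2r3d no peak and 0.393. The 5'-most starts of Samd4b, Hmgb1, Smarcc1 and Mapre2 also lay within 1 kb of a start of another gene. That of Samd4b held the same peak as the 5'-most start of Pak4, so 1 peak was counted for both genes. Whether this start, 162 kb upstream of the internal one, is a promoter of Samd4b was not tested.

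Internal starts of brain genes were read in 8 lists of 227 symbols chosen by function. Against 23.9% of all internal starts open in both libraries, the lists had 19 of 46 for synaptic adhesion (41.3%), 22 of 51 for synaptic scaffolds and release (43.1%), 37 of 107 for the cytoskeleton (34.6%), 33 of 79 for kinases and signalling (41.8%), 30 of 70 for transcription and chromatin (42.9%) and 19 of 46 for channels and receptors (41.3%). Glia and myelin genes had 3 of 13 (23.1%). Genes known for other tissues had 4 of 42 (9.52%). Among complete starts alone, where 35.6% of all were open in both, the neural lists ran from 50% for transcription to 63.3% for adhesion. The lists for glia and for other tissues stood at 33.3% (2 of 6) and 8.70% (2 of 23).

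Signal in these lists was moderate. Their open internal starts had list medians from 0.627 to 1.36 in replicate 1 and from 0.820 to 1.66 in replicate 2, around the median of all internal starts with a peak (1.05 and 1.15).

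Among adhesion genes, the presynaptic receptor genes Nrxn2 and Nrxn3 had internal peaks. Nrxn2 had 2.45 and 2.29 at 79.1 kb, against 6.04 and 7.13, and Nrxn3 had 2.34 and 2.30 at 1090 kb, against 2.97 and 3.46. In both genes the internal start was lower than the 5'-most start in each library.

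Ptprs, a receptor phosphatase of axon growth, had the highest internal signal of the list, 4.83 and 6.89, with 9.36 and 10.4 at the 5'-most start. The teneurin gene Tenm4 had no peak at the 5'-most start and peaks at 3 internal starts, the strongest with 1.13 and 1.5 and another with 0.914 and 1.52. Cntnap2, a neurexin relative, had 1.36 and 1.68 at 2185 kb, against 1.40 and 1.25. The internal starts of Cntn5 and Ncam1 had no peak in either library, and their 5'-most starts had 1.82 and 2.56, and 7.67 and 9.13. Those internal starts were incomplete in Ncam1 and complete in Cntn5. The 5'-most start of Cntn5 lay within 1 kb of a start of another gene.

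Scaffold genes of the postsynaptic density had internal peaks in both the Shank and the Dlg family. Shank3 had 4.10 and 4.90 at 33.3 kb, against 1.48 and 0.964 at the 5'-most start, and Shank2 had 1.73 and 1.87 at 282.5 kb with no peak at the 5'-most start. Dlg4, which encodes PSD-95, had 2.86 and 4.23 at 12.5 kb and no 5'-most peak, whereas Dlg2 had 0.691 and 0.762 at 614 kb against 8.05 and 11.2. Sorbs2, an actin-linked adaptor, had 2.91 and 4.12 against 0.900 and 1.01. The secretion factors Cadps and Cadps2 had no peak at an internal start, each of which was incomplete.

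Cytoskeletal genes held many internal starts with clear peaks. Dclk1, a doublecortin-like kinase on microtubules, had 3.94 and 5.82 at 219.6 kb, against 3.93 and 4.05. Ank2, an ankyrin that anchors membrane proteins to spectrin, was open at 4 internal starts in both libraries, led by 3.88 and 5.34 at 90.3 kb, against 1.56 and 1.44. The microtubule protein gene Map4 had 2.50 and 4.25 against 7.97 and 9.51, and Map2, the dendritic one, 2.79 and 2.66 at 146.4 kb against 2.69 and 2.48. None of the starts of Add1 and Epb41, 4 and 5 in number and 3 and 4 of them incomplete, had a peak.

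Signalling genes were led by a phosphodiesterase. Pde4d, which degrades cyclic AMP and is known for many isoforms, had 3.76 and 6.18 at a start 1477 kb downstream, against no peak and 0.307 at the 5'-most start. Prkcz, an atypical protein kinase C known in brain for a short form made from an internal promoter, had 3.13 and 3.44 against 1.21 and 0.921. Agap1, a GTPase-activating protein of vesicle traffic, had 3.42 and 2.79 against 5.05 and 4.97. At Bdnf, a neurotrophin gene with several first exons, 4 internal starts were open in both libraries, the highest with 1.05 and 1.54 against 0.535 and 0.362. The calcium-dependent kinase genes Camk2d and Camk2g had internal starts that were all incomplete and without a peak.

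In the transcription list Hdac4 came first and Camta1, a calmodulin-binding factor, second, with 4.54 and 4.79 at 753 kb against 10.7 and 14.4. Mef2c, a factor of excitatory neurons, had 2.10 and 2.76 at 20.3 kb and no 5'-most peak. Nfix, a nuclear factor I gene, had 2.49 and 4.33 at 26.0 kb against 0.980 and 0.989. Rorb, a nuclear receptor gene that marks a layer of sensory cortex, had no peak at its internal start and 2.76 and 3.74 at the 5'-most one. Mef2a likewise had a peak only at the 5'-most start, with 7.33 and 7.41. The internal start was complete in Rorb and incomplete in Mef2a.

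Among channels and pumps, Atp2b2, a plasma membrane calcium pump, had 3.19 and 4.83 at 107.9 kb, against 0.829 and no peak at the 5'-most start. The sodium channel gene Scn2a had 3.14 and 3.72 against 1.84 and 2.27. The kainate receptor genes Grik1 and Grik2 had a peak at the 5'-most start alone, with 1.05 and 1.07 at Grik1 and 3.49 and 3.08 at Grik2. That start of Grik2 lay within 1 kb of a start of another gene, and the internal starts of Grik2 were incomplete.

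Glial genes gave few values. Enpp2, an enzyme made by choroid plexus and oligodendrocytes, had 1.97 and 3.18 at 32.9 kb against 0.810 and 0.602. Its 5'-most start lay within 1 kb of a start of another gene. Bcas1, a gene of newly forming myelin, had 0.691 and 0.842 with no 5'-most peak, and Runx1, a factor of blood and microglia, 0.928 and 0.842 against 0.483 and 0.614. The microglial phosphatase gene Inpp5d and the myelin RNA-binding gene Qk had none at an internal start, and 0.526 and 0.633, and 6.29 and 7.68, at the 5'-most one. The internal start of Qk was incomplete.

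Of genes known for other tissues, Neb, a giant protein of muscle, had 1.65 and 3.10 at an incomplete start in an exon 201.9 kb downstream, against no peak and 0.362 at its 5'-most start. Prlr, the prolactin receptor, had 1.56 and 1.72 against 0.289 and 0.375. The sarcomere gene Actn2 had a peak at the 5'-most start alone, with 2.22 and 2.24, and its internal start was incomplete. Cyp19a1, the aromatase gene, had none at its internal or its 5'-most start.

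Genes with most internal starts had some of them in accessible DNA, beside 23.9% of all internal starts and 35.6% of complete ones open in both libraries. Most internal starts of Ank3 and Macf1 were incomplete, whereas most of Pde4d and all of Tcf4 were complete. Ank3, the ankyrin of the axon initial segment, had 12 internal starts and 3 open in both libraries. The strongest had 1.94 and 2.78 at 135.4 kb, against 0.279 and no peak at the 5'-most start. Its peak began outside the region in each library, so the values need not be those of the start. Pde4d had 11 internal starts, with 5 open in both. Macf1, a spectraplakin that crosslinks actin and microtubules, had 10, with 3 open, led by 1.81 and 2.26 at 272.1 kb with no 5'-most peak. Tcf4, a helix-loop-helix factor of cortical development, had 9, with 3 open in both, and the start at 249.6 kb had 4.45 and 6.53 with no peak at the 5'-most start. Ttn, the giant sarcomere protein gene, had 11 internal starts, nearly all of them incomplete, and no peak at any start.

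**Figure D5:**
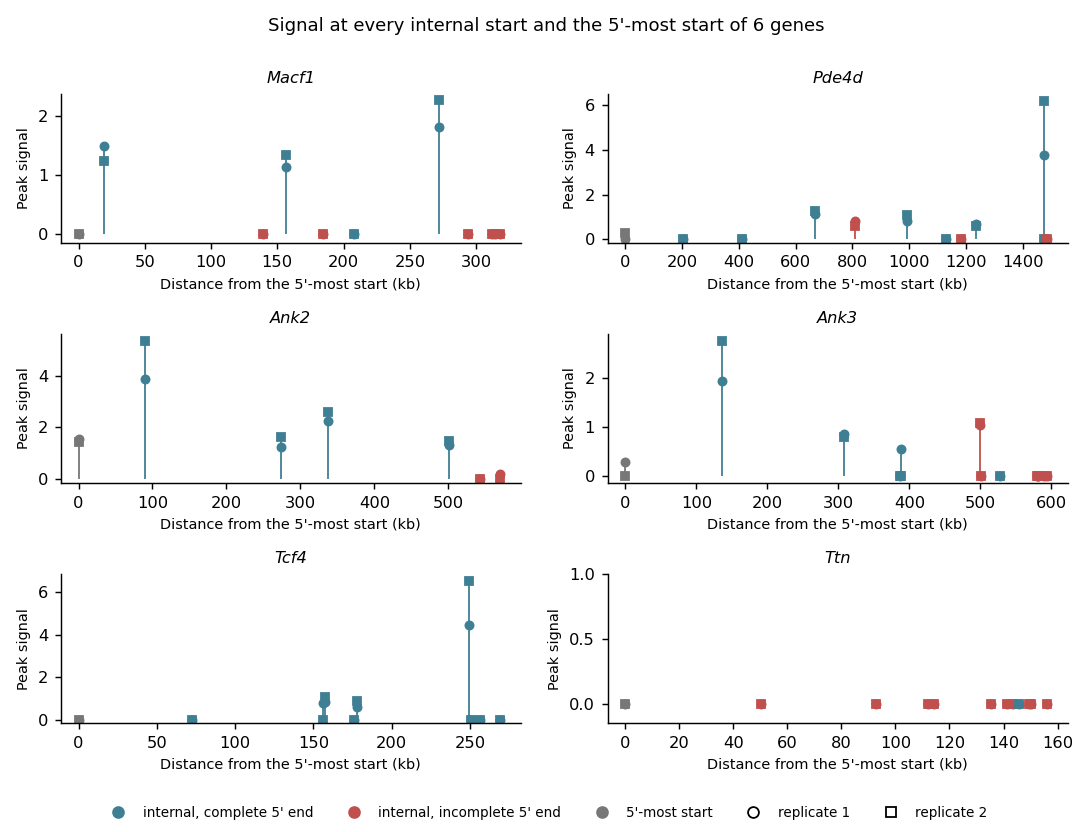
Deposited peak signal (vertical axis) at every internal start and at the 5'-most start of 6 genes, by distance from the 5'-most start (horizontal axis, kb); circles are replicate 1, squares replicate 2, and colour marks complete and incomplete 5' ends. In Pde4d, Macf1 and Tcf4 the highest value stands at an internal start 1477, 272.1 and 249.6 kb downstream, in Ank2 and Ank3 at the internal start nearest to the 5'-most one, and Ttn has none.

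In the 3 starts with the largest ratios between the libraries the strongest peak was not the same peak in both. Tsc22d1, a leucine zipper factor gene, had 5.89 in replicate 1 and 1.03 in replicate 2, at peaks that began at positions 76504221 and 76505321 of chromosome 14. Rps14 with 3.56 and 0.915 and Foxn3 with 2.01 and 0.620 also had a different strongest peak in each library, as did Schip1 with 1.80 and 0.940, whose ratio was smaller. A peak counts when it overlaps a region by at least 1 bp. In replicate 1 the peaks of Tsc22d1, Rps14, Foxn3 and Schip1 lay mostly outside the region, so their values need not be those of the start. In Ahcyl2, with 3.08 and 1.66, the strongest peaks of the libraries overlapped. In the other direction Tbc1d22a had 0.781 and 1.95, Lonp2 1.22 and 2.78, Prex1 0.909 and 2.00, Hsd11b1 1.99 and 4.29, and Hdac9 1.83 and 3.66, and in each of these the strongest peaks of the libraries overlapped. These are single values of 2 libraries, with no group to compare.

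The tissue label was checked at promoters within 1000 bp of any start of marker genes. Markers of neurons (Rbfox3, 3.23 and 2.16), of excitatory cortical neurons (Slc17a7, 1.31 and 2.11, and Neurod6, 1.66 and 2.91) and of astrocytes, oligodendrocytes and microglia had a peak in both libraries, as did 21 of 23 brain markers in all. The interneuron marker Sst and the endothelial marker Cldn5 had none. Of other tissues, the blood genes Gata1 and Cd3d had none, the liver gene Alb had 0.275 in replicate 1 only, and the muscle gene Ckm had 2.82 and 1.46. The libraries held 150726 and 155536 peaks, and their sequencing depth is not given in the sources used here. Files give no read counts, so no counting interval is given for a signal.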

How the data were processed

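DNase-seq was analysed in 2 libraries of 1 group, each from its own deposited files. Per the file headers and notes, the authors made the peak lists, footprints and false discovery rate intervals from each library's own mm10 alignments and did not pool replicates. The aligner and each caller were not given in the sources used here. As deposited, the signal of a peak is a cleavage density that the authors scaled to depth. Each interval carries a deposited q-value (false discovery rate), and the file lists only values under 0.05. The score column of the deposited footprints is constant, so only positions were used. Of 2 peak lists per library, the larger one was used.

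Starts came from GENCODE M21, and sequence from GRCm38, the assembly mm10 names. A region was called open when a peak overlapped it by at least 1 bp. The representative of merged starts was the start with most transcripts. Gene ratios have no pseudocount. No model was fitted and no p computed; SDs are over the libraries. Mapping bias from CAST/EiJ alleles was not tested.

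The members and lists were chosen with earlier results of these data known. Genes were named by rule: the 15 internal starts of highest mean signal, per list the 3 highest and up to 2 genes in alphabetical order without a peak, the 10 largest and 5 smallest ratios above the median internal signal, the 10 strongest genes without a 5'-most peak, the 5 genes with most internal starts and the 5 largest library ratios in each direction; a few that this rule takes are not reported here. Further list genes (Nrxn2, Nrxn3, Tenm4, Cntnap2, Shank2, Dlg2, Map2, Bdnf, Mef2c and Nfix) and the sequences of list genes were chosen for display after their values were seen, as was the comparison around the 10 kb limit. The share and ratio code was tested on simulated data. Python 3.11.15, pandas 2.3.3, NumPy 2.4.6, pysam 0.24.0, bedtools 2.31.1 and matplotlib 3.10.9 were used.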

Additional observations from a re-analysis of the deposited data

How the results depend on the processing

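No result changed direction in any alternative run. The main values were 26.1% of internal and 73.7% of 5'-most starts with a peak (difference -47.6 points), a median signal of 1.10, a median log2 ratio of -0.80, 292 genes open at an internal start alone, and differences of 29.98 points by 5' end and 73.6 points by CpG content. With 250 bp on either side these shares were 23.0% and 70.7%, the ratio -0.67 and the 5' end difference 28.7. With 1000 bp they were 30.7% and 77.0% (difference -46.2), the ratio -0.90 and the CpG difference 69.5. The stricter peak list gave 20.03% and 68.6% (difference -48.6), a median signal of 1.54, a ratio of -0.58 and a 5' end difference of 26.2. Requiring the peak centre inside gave 25.1%, 72.9% and a ratio of -0.72. Taking the 5'-most protein-coding transcript gave 25.1% and 75.4% (difference -50.3) and a 5' end difference of 28.9. Starts at least 20 kb downstream gave 26.7% and 76.5% (difference -49.8), a ratio of -0.93, 187 genes and a 5' end difference of 32.1; fewer genes entered there. Starts over 5 kb from other genes gave 74.3% for 5'-most starts and a ratio of -0.83. Complete starts alone gave 38.1% and 67.7% (difference -29.6), a median signal of 1.20, a ratio of -0.52 and a CpG difference of 64.5. Genes with an isolated 5'-most start gave 26.9% and 69.4% (difference -42.5) and a ratio of -0.71. Divided by the library's median peak, the median internal signal was 1.82. Where not stated, the cause was not tested.

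With 1 library left out, the shares ranged from 25.9% to 26.3% and from 73.4% to 74.1%, and their difference from -48.2 to -47.0. The median signal ranged from 1.05 to 1.15 and the ratio from -0.82 to -0.77. The 5' end and CpG differences ranged from 29.5 to 30.4 and from 72.5 to 74.6. Genes open at an internal start alone ranged from 329 to 351, but with 1 library the criterion is looser than in both. No paired analysis was possible because the labels give 1 group. Sequencing depth is unknown, so weak internal peaks may go unlisted. Of the internal starts without a peak, 78 (1.79%) and 63 (1.46%) still held an interval under the false discovery rate limit.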
